A study of Mus musculus with 72 samples.

Results

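The 9 genes described here encode subunits of voltage-gated potassium channels that repolarize excitable cells: Kcna1, Kcna4, Kcna5, Kcnd2, Kcnd3, Kcnip2, Kcnq1, Kcnh2 and Kcne1. They were taken by symbol, and each was found once among the 53715 gene identifiers of the count files. Each was followed across 72 RNA-seq libraries from 18 male mice aged 18 weeks, 6 Gnb5-/-, 6 Gnb5+/- and 6 Gnb5+/+ (wild-type). Atria and ventricles were sampled in all 3 genotypes, and cerebellum, hippocampi and cerebral cortex in Gnb5-/- and wild-type mice, which gave 12 groups of 6 libraries. The mutant mice carried a deletion of exon 3 of Gnb5 in the germline, on a C57BL/6J background, and came from heterozygous breeding of a line rederived from frozen sperm. Litters that held Gnb5-/- pups were given supplementary food before and around weaning. Gnb5-/- mice were smaller, with smaller hearts, and the study reported heavier Gnb5+/- males and bigger Gnb5+/- hearts than in wild-type mice. In both genotypes, size cannot be told apart from the genotype. The atrial samples held right and left atria together, with the nodal cells they contain.

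Voltage-gated potassium channels open on depolarization and let potassium leave the cell, which ends the action potential. In mouse heart, Kcnd2 and Kcnd3 form the pore of the fast transient outward current, Kcnip2 is the calcium-binding accessory subunit that brings this channel to the membrane, and Kcna4 carries the slow transient outward current. Kcna5 encodes the pore of an ultrarapid delayed rectifier, Kcnh2 that of the rapid delayed rectifier, and Kcnq1 with its small accessory subunit Kcne1 makes the slow delayed rectifier. RNA levels do not give the size of these currents in mouse heart, and no current was measured here. In brain, Kcnd pores with Kcnip partners make the A-type current of dendrites, while Kcna1 lies mainly on axons and limits repetitive firing.

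Libraries held 29204390 to 48807435 reads counted on genes. Levels are given as CPM, the counts of a gene scaled to a common library size after TMM normalization of all libraries together. Gnb5 ran from 27 to 37 CPM in wild-type, 13.4 to 21.3 CPM in Gnb5+/- and 0.858 to 2.93 CPM in Gnb5-/- heart libraries, and from 71.4 to 113 CPM in wild-type and 8.87 to 16.1 CPM in Gnb5-/- brain libraries, so no library went against its genotype label. The summed level of 4 ventricular muscle genes was 13322 to 22882 CPM in ventricles and 98.2 to 1382 CPM in atria, that of 5 atrial muscle genes 25301 to 43551 CPM in atria and 129.6 to 489 CPM in ventricles, and that of 4 neuronal genes 2209.8 to 3743 CPM in brain and at most 15 CPM in heart. Wild-type atria varied in ventricular muscle genes, at 124, 1382, 159, 1064, 538 and 329 CPM in replicates 1 to 6.

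By the relation of levels to transcript length, 4 libraries stood apart from their group: cerebellum Gnb5-/- replicate 2, cortex Gnb5-/- replicates 3 and 5, and ventricles Gnb5+/- replicate 4. Over genes, the deviation of a library from the rest of its group correlated with transcript length at a Spearman rho of -0.70, -0.59, -0.70 and -0.77 in these libraries, against -0.36 to 0.53 in the other 68, a description over genes, which are not independent. Reads outside annotated genes made up 8.02, 6.86, 8.32 and 2.85% of them, against 11.7 to 17% in the other brain and 4.41 to 5.71% in the other ventricular libraries. These libraries also held more of markers of blood, 3 genes summed to 88.4, 146, 58.3 and 3836 CPM in the same order, against 16.9 to 32.7, 16.7 to 32.4 and 413 to 1510.3 CPM in the rest of the 3 groups. The 4 choroid plexus genes summed to 614 CPM in the cerebellar library and 1.65 to 5.6 CPM in the other 5 of its group, and the 5 atrial muscle genes to 58.8 CPM in cortex replicate 3 and 6.13 to 10.4 CPM in the other 5 of its group. Their part in the results was not tested. Results include these libraries, and some are also given without them.

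The level of each gene per kb of exon (CPM divided by the length of the union of exons) allowed the 9 genes to be ordered within a tissue of the 6 wild-type mice. In atria Kcnh2 was the most abundant at 35.1 ± 5.08 CPM per kb (SD, n = 6), followed by Kcnq1 at 15.7 ± 1.3 CPM per kb, and their ranges did not overlap. In ventricles Kcnip2 came first at 44.1 ± 7.62 CPM per kb, clear of Kcnh2 at 16.6 ± 4.03 CPM per kb. Behind them stood Kcnq1 at 12 ± 1.96, Kcnd2 at 10.5 ± 1.95 and Kcna5 at 8.62 ± 3.53 CPM per kb, and each neighbour from Kcnh2 to Kcna5 overlapped the next in range. Kcnip2 also came first in hippocampus and cortex, at 48.3 ± 2.28 and 36.1 ± 2.89 CPM per kb, with Kcnd2 next at 21.2 ± 1.53 and 14.7 ± 1.11 CPM per kb. In cerebellum Kcnd2 came first at 47.6 ± 4.51 CPM per kb, ahead of Kcna1 at 25.3 ± 0.847 and Kcnd3 at 14.5 ± 0.51 CPM per kb, and Kcnip2 was only at 0.413 ± 0.0828 CPM per kb. Kcne1 was last in atria at 0.239 ± 0.144 CPM per kb and last in every brain region, and Kcna4 was last in ventricles at 0.433 ± 0.172 CPM per kb, overlapping Kcna1. Summed over the 9 genes, the level per kb was 76.8 ± 4.66 in atria, 99.3 ± 15.3 in ventricles, 93 ± 4.72 in cerebellum, 103 ± 1.76 in hippocampus and 82.5 ± 3.66 in cortex.

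**Figure D1:**
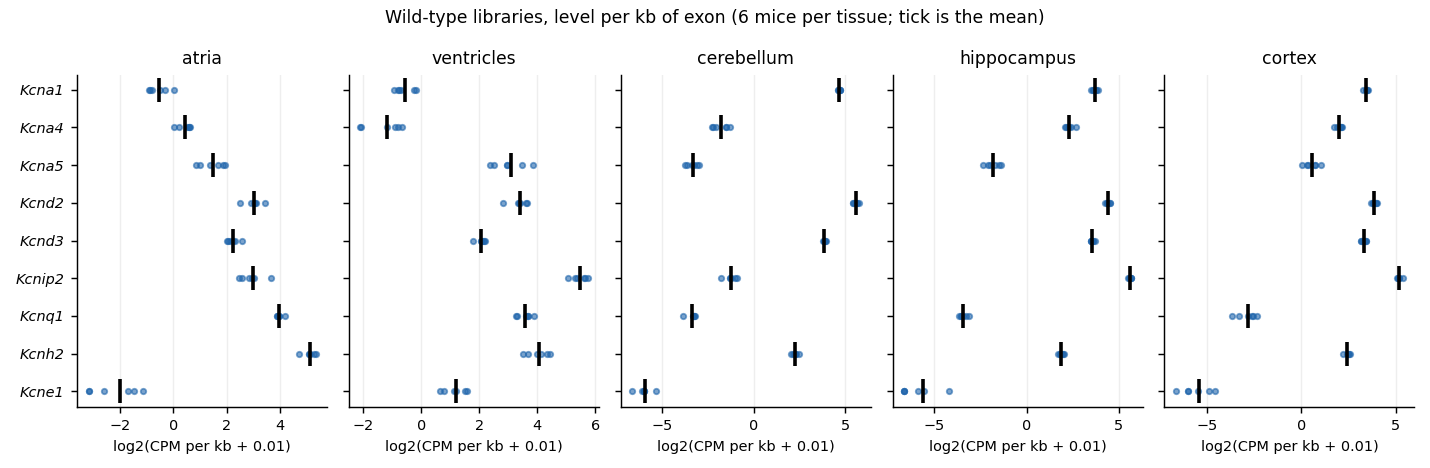
Level of the 9 genes in wild-type libraries of the 5 tissues, as log2 of CPM per kb of exon plus 0.01; each point is 1 of 6 mice and each tick the mean. Kcnh2 is highest in atria, Kcnip2 in ventricles, hippocampus and cortex, and Kcnd2 in cerebellum, while Kcne1 is lowest in every tissue but the ventricles.

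Atria and ventricles of the wild-type mice differed in 8 of the 9 genes. Kcnh2, Kcna4, Kcnq1 and Kcnd3 were higher in atria, as were 29.8% of the 19477 genes tested, and Kcnip2, Kcne1, Kcna5 and Kcnd2 were lower in atria, as were 21.8% of all genes. The median absolute log2 difference was 1.13 over the 9 genes and 0.42 over all genes tested. Over other voltage-gated potassium channel genes, listed below, it was 1.02, so its size was not particular to the 9 genes.

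The transient outward genes did not share a direction. Kcnip2 (chr19:45791839-45816061, minus strand, GRCm38) ran from 115 to 185 CPM (median 156) in ventricles and from 19.5 to 44.7 CPM (median 25.9) in atria, a log2 difference of -2.43 ± 0.145 (SE, edgeR adjusted p = 3.74e-15). All 6 atrial libraries lay below all 6 ventricular ones. The highest atrial value, 44.7 CPM in replicate 4, came from 1 of the 2 atrial libraries with the most ventricular muscle genes, while the other, replicate 2, had 25 CPM of Kcnip2. Kcnd2 (chr6:21215503-21729805, plus strand), the main pore subunit, was at 29.5 to 56 CPM (median 42.9) in atria and 36.6 to 65 CPM (median 53.9) in ventricles. These ranges overlapped, and the log2 difference of -0.31 ± 0.111 (adjusted p = 0.0208) was no longer called without replicate 4, 5 or 6 (adjusted p = 0.0547, 0.095 and 0.0857). Kcnd3 (chr3:105452330-105674002, plus strand), the other pore subunit, was at 38.4 to 57.4 CPM (median 43.8) in atria and 33.3 to 44 CPM (median 41) in ventricles, also with overlap. Its log2 difference of 0.21 ± 0.0724 (adjusted p = 0.0148) was called with TMM factors but not with RLE factors (0.16, adjusted p = 0.0913), with DESeq2 (adjusted p = 0.0884) or without replicate 1 (adjusted p = 0.0554). Kcna4 (chr2:107290639-107298502, plus strand), of the slow transient outward current, was at 4.87 to 7.45 CPM (median 7.04) in atria and 1.08 to 3.0 CPM (median 2.31) in ventricles, with no overlap and a log2 difference of 1.69 ± 0.198 (adjusted p = 1.41e-08). The 95% interval of the accessory subunit Kcnip2, -2.73 to -2.14, lay outside those of the pores Kcnd2 (-0.53 to -0.081) and Kcnd3 (0.064 to 0.36). Within a library, the ratio of Kcnip2 to Kcnd2 per kb was 1.0 ± 0.396 in atria and 4.27 ± 0.674 in ventricles.

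Among the delayed rectifiers, Kcna5 (chr6:126532551-126535412, minus strand) ran from 5.18 to 10.9 CPM (median 8.17) in atria and from 14.9 to 41.5 CPM (median 22) in ventricles, a log2 difference of -1.56 ± 0.215 (adjusted p = 2.81e-07), and the chambers did not overlap. Kcnh2 (chr5:24319589-24351604, minus strand) ran from 129 to 198 CPM (median 169) in atria and from 54.7 to 105 CPM (median 81.3) in ventricles, a log2 difference of 1.13 ± 0.12 (adjusted p = 1.96e-09). No ventricular library reached the lowest atrial one. Kcnq1 (chr7:143106362-143427042, plus strand), the pore of the slow delayed rectifier, was at 60.3 to 74.9 CPM (median 63.4) in atria and 39 to 60.2 CPM (median 51) in ventricles, a log2 difference of 0.44 ± 0.112 (adjusted p = 0.00137). Its partner Kcne1 (chr16:92345982-92359468, minus strand) had the opposite direction, at 0.319 to 1.43 CPM (median 0.714) in atria and 5.0 to 9.55 CPM (median 7.1) in ventricles, a log2 difference of -3.19 ± 0.378 (adjusted p = 1.75e-08). The atrial values of Kcne1 rest on 9 to 42 counts per library. The ratio of Kcne1 to Kcnq1 per kb was 0.0149 ± 0.00821 in atria and 0.191 ± 0.0598 in ventricles. Kcna1 (chr6:126640397-126646384, minus strand) was low in both chambers, at 2.5 to 4.79 CPM (median 2.99) in atria and 2.45 to 4.18 CPM (median 2.84) in ventricles, and its difference of 0.089 ± 0.134 did not pass the test (adjusted p = 0.616). In bulk tissue, fewer cells that use a gene and less of its RNA per cell cannot be told apart. Kcnq1 shares 121 bp of exon with the antisense gene Kcnq1ot1 and Kcnd3 165 bp with Kcnd3os, and the strand setting of the counting is not given in the sources used here.

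The 250 bases before the RefSeq start of 4 genes are shown because 2 of them, Kcnip2 and Kcna5, were higher in ventricles and 2, Kcna4 and Kcnh2, higher in atria (GRCm38.p6, 5′ to 3′ on the strand of the gene). Capitals mark matches, on either strand, to the GC box (letters GGGCGG). They also mark the TATA box (letters TATAAA), the E-box (letters CACGTG), the MCAT element (letters CATTCC) and the GATA site (letters AGATAA), none of which overlaps another in these windows.
Kcnip2, chr19:45816064-45816313, minus strand: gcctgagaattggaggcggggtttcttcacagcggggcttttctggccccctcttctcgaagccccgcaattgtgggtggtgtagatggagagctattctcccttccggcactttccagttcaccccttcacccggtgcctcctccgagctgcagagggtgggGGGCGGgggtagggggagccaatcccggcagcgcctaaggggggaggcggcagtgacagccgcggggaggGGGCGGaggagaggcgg
Kcna5, chr6:126535556-126535805, minus strand: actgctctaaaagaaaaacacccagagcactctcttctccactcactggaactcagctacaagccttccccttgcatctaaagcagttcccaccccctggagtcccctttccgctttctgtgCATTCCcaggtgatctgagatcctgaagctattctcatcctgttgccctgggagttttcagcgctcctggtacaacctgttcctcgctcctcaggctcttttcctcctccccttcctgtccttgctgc
Kcna4, chr2:107290339-107290588, plus strand: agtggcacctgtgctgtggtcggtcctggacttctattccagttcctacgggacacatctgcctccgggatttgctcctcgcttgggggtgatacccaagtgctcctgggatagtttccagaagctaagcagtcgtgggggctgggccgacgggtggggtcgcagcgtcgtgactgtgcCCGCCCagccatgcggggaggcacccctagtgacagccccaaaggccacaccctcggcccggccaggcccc
Kcnh2, chr5:24329592-24329841, minus strand: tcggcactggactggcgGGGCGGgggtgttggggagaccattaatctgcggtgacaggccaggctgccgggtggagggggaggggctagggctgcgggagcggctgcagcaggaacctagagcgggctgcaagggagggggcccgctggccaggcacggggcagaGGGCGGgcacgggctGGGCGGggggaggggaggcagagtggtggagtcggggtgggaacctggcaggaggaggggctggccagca
The Kcnh2 window lies inside the longer annotated gene, before an internal start. Kcnip2 held 2 GC boxes, Kcna4 1 and Kcnh2 3, and Kcna5 held 0 GC boxes and 1 MCAT element. Of 32851 mouse promoters of this length, 32.7% held a GC box, 12.6% an MCAT element, 12.4% a TATA box, 9.99% a GATA site and 6.02% an E-box. The GC content was 66.8, 53.2, 65.2 and 73.6% in the order shown, with 15, 3, 14 and 14 CpG dinucleotides, against medians of 52.4% and 6 over all promoters. No searched motif was shared by both ventricle-high genes alone or by both atria-high genes alone. Sequences were also matched for Kcnd2 and Kcnd3, and not for Kcna1, Kcnq1 and Kcne1.

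Between brain and heart of wild-type mice all 9 genes differed, 4 higher and 5 lower in brain, where 50.2% of all genes tested were higher and 40.7% lower. Kcne1 entered this fit only through heart libraries and had too few counts in brain for a test there. Its direction was therefore fixed by the filter. The median log2 difference of all genes was itself 0.22. Kcna1, the axonal channel, lay furthest above heart at 4.55 ± 0.0829, followed by Kcnd3 (1.46 ± 0.0483), Kcnd2 (1.44 ± 0.0739) and Kcna4 (1.26 ± 0.124). Kcnq1 lay furthest below at -7.08 ± 0.0949, then Kcne1 at -6.14 ± 0.326, Kcna5 at -3.85 ± 0.153, Kcnh2 at -2.37 ± 0.0772 and Kcnip2 at -1.02 ± 0.0925, and the largest adjusted p of the 9 was 4.82e-11. Both subunits of the slow delayed rectifier were scarce in brain. Kcnq1 was at 0.24 to 0.407 CPM in cerebellum, 0.285 to 0.426 CPM in hippocampus and 0.279 to 0.752 CPM in cortex, from 14 to 43 counts per library. Kcne1 had 0 to 3 counts per library in cerebellum, 0 to 7 in hippocampus and 0 to 6 in cortex, and a library at 0 allows up to 3 counts. The hippocampal library with 7 counts, replicate 6, also held 51.4 CPM of ventricular muscle genes, against at most 0.477 CPM in the other 5; their part in its Kcne1 was not tested.

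Brain regions differed widely, and the cerebellum most. Kcnip2 was at 0.956 to 1.78 CPM (median 1.4) in wild-type cerebellum, 157 to 176 CPM (median 171) in hippocampus and 118 to 145 CPM (median 123) in cortex. Cerebellar libraries lay far below both other regions, with a log2 difference of -6.81 ± 0.184 to hippocampus (adjusted p = 1.21e-24) and -6.38 ± 0.181 to cortex (adjusted p = 5.44e-24). Kcna4 was likewise low in cerebellum, at 0.941 to 1.89 CPM (median 1.37), against 20.1 to 30.3 CPM (median 23.3) in hippocampus and 16.1 to 21.3 CPM (median 20.5) in cortex. Its log2 difference was -4.06 ± 0.191 between cerebellum and hippocampus (adjusted p = 2.35e-18) and -3.76 ± 0.19 between cerebellum and cortex (adjusted p = 1.49e-17), while that between hippocampus and cortex did not pass the test (0.31 ± 0.162, adjusted p = 0.15). Kcna5 ran from 0.18 to 0.331 CPM (median 0.256) in cerebellum, 0.537 to 1.05 CPM (median 0.76) in hippocampus and 2.87 to 5.98 CPM (median 4.11) in cortex, with no overlap between regions and a log2 difference of -2.40 ± 0.244 between hippocampus and cortex (adjusted p = 1.99e-09).

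The pores of the A-type current were highest in cerebellum, where Kcnip2, 1 of their accessory subunits, was lowest. The levels of their other accessory subunits in cerebellum are not given here. Kcnd2 was at 218 to 281 CPM (median 248) in cerebellum, 98.8 to 119 CPM (median 108) in hippocampus and 67.5 to 81.8 CPM (median 75.6) in cortex. The regions did not overlap, and Kcnd2 differed by 1.23 ± 0.109 between cerebellum and hippocampus (adjusted p = 1.58e-11) and by 1.77 ± 0.111 between cerebellum and cortex (adjusted p = 3.28e-15). Kcnd3 followed at 134 to 146 CPM (median 138), 107 to 123 CPM (median 111) and 85.3 to 104 CPM (median 95.1) in the same order, again without overlap. The ratio of Kcnip2 to Kcnd2 per kb was 0.00879 ± 0.00204 in cerebellum, 2.29 ± 0.204 in hippocampus and 2.47 ± 0.223 in cortex. Kcna1 was at 116 to 125 CPM (median 121) in cerebellum, 53.1 to 68.7 CPM (median 61.6) in hippocampus and 46.3 to 54.8 CPM (median 52.6) in cortex. Its log2 difference was 1.03 ± 0.0964 between cerebellum and hippocampus (adjusted p = 4.71e-11), while that between hippocampus and cortex, 0.26 ± 0.0959 (adjusted p = 0.0376), was not called with RLE factors (adjusted p = 0.0563) or without replicate 1, 3, 4 or 6 (adjusted p = 0.102, 0.153, 0.0663 and 0.0762). Kcnh2 was at 19.5 to 27.3 CPM (median 23.3) in cerebellum, 15.4 to 19.4 CPM (median 17.7) in hippocampus and 22.3 to 28.6 CPM (median 26.4) in cortex, and was lower in hippocampus than in cortex by a log2 difference of -0.55 ± 0.122 (adjusted p = 5.78e-04). Kcnq1 was called lower in hippocampus and in cerebellum than in cortex (-0.62 ± 0.20 and -0.51 ± 0.195, adjusted p = 0.0157 and 0.0217), and both calls were lost without replicate 2, 3 or 4 (adjusted p = 0.0751, 0.0914 and 0.0755 against hippocampus and 0.0833, 0.212 and 0.0545 against cerebellum).

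In hippocampus 4 of the 9 genes were higher and 3 lower than in cortex (all genes 16.8% and 16.7%). In cerebellum 3 of the 9 genes were higher and 4 lower than in cortex (all genes 33.8% and 35.3%), and 4 were higher and 3 lower than in hippocampus (all genes 33.5% and 34.8%). The median absolute log2 difference of the 9 genes was 1.29 between cerebellum and cortex, 1.03 between cerebellum and hippocampus and 0.43 between hippocampus and cortex, against 0.56, 0.55 and 0.23 over all genes. Over other voltage-gated potassium channel genes it was larger, at 2.33, 1.98 and 0.69 in the same order.

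**Figure D2:**
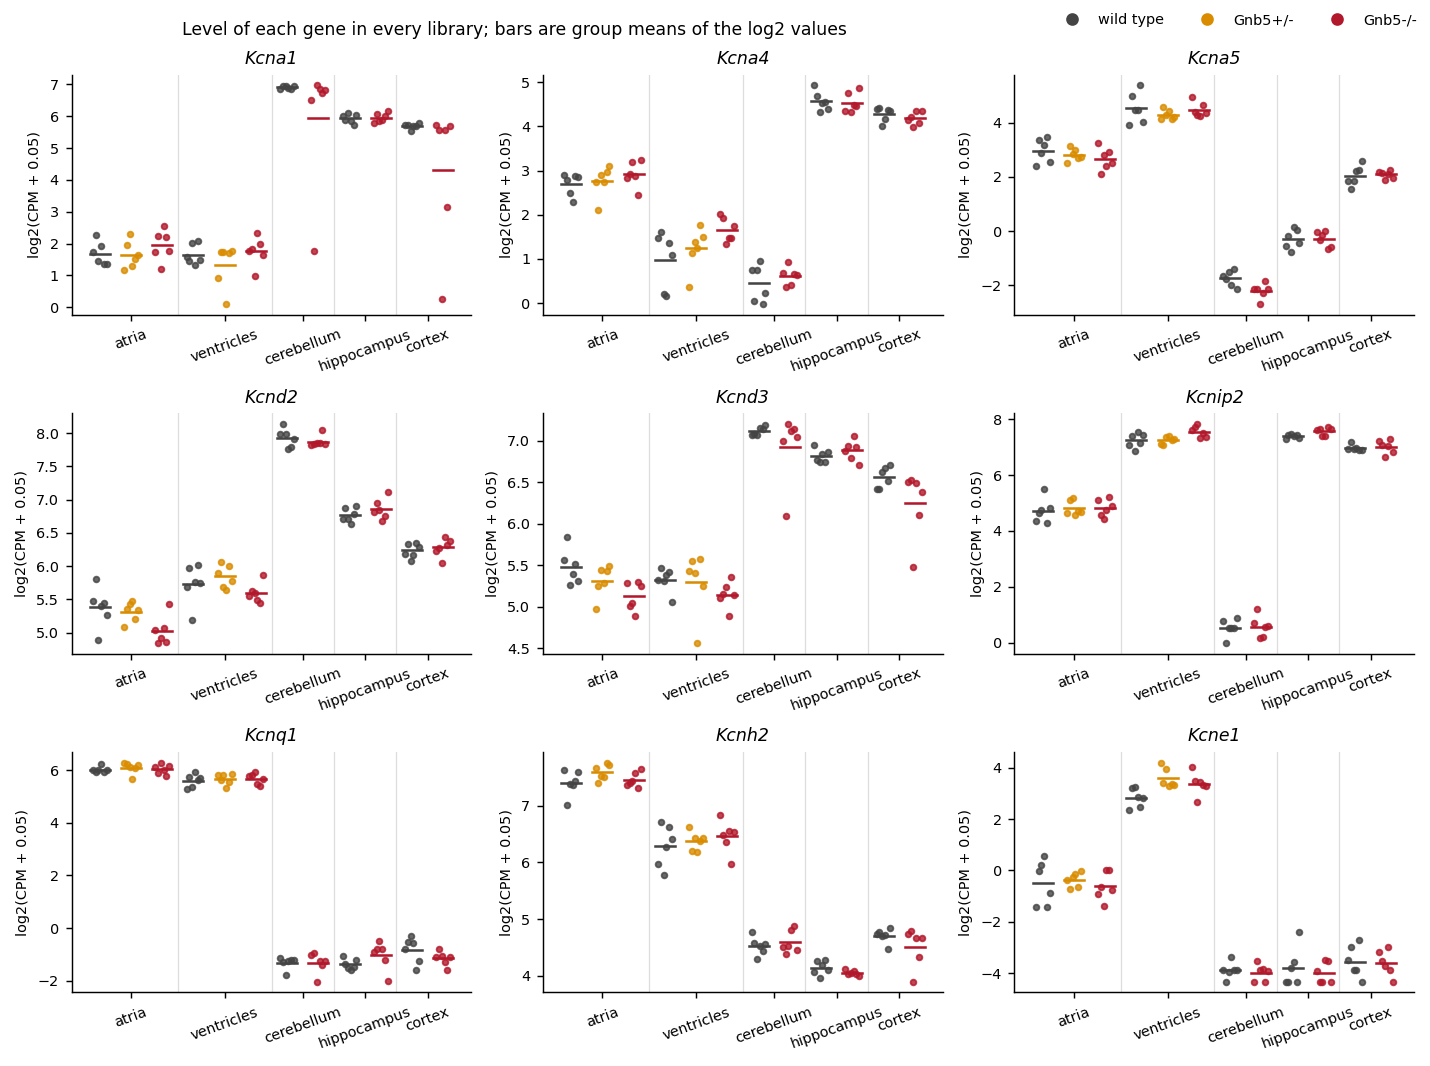
Level of each of the 9 genes in all 72 libraries, as log2 of CPM plus 0.05, by tissue and genotype; each point is 1 library and each bar the mean of a group of 6. Tissues differ more than genotypes, whose points overlap other than for Kcne1 in Gnb5+/- and wild-type ventricles; in the Kcna1 and Kcnd3 panels, 1 cerebellar and 2 cortical Gnb5-/- libraries lie below the rest of their group.

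The same contrasts were fitted in the 30 libraries of Gnb5-/- mice, which share no animal with the wild-type contrasts. All 9 genes differed between brain and heart with the wild-type sign, Kcna1 by 3.96 ± 0.431, or 4.23 ± 0.116 without the 3 brain libraries that stood apart. Kcne1 again entered only through heart libraries, so its sign between brain and heart was fixed by the filter. Of the 8 genes called between wild-type atria and ventricles, 7 kept their sign and 6 were called in Gnb5-/- mice, or 7 without those libraries, which share the estimate of the spread. Kcnd3 did not keep its sign, at -0.017 ± 0.152, and Kcnq1, at 0.35 ± 0.153, was called only without those libraries (0.35 ± 0.113). Kcnip2 differed by -2.70 ± 0.155 between Gnb5-/- atria and ventricles, Kcne1 by -4.04 ± 0.345, Kcna5 by -1.79 ± 0.164, Kcna4 by 1.27 ± 0.141 and Kcnh2 by 0.98 ± 0.127. Of the 7 genes called between wild-type cerebellum and hippocampus, 5 were called in Gnb5-/- mice with the 3 libraries and 7 without them, and between cerebellum and cortex 6 of 7 either way. Between hippocampus and cortex 5 of 7 were called either way, and Kcna1 was not, at 0.83 ± 0.547 with the 3 libraries and 0.32 ± 0.152 without them. Kcnq1 was not called either, and its sign was opposite to that in wild-type mice, at 0.19 ± 0.207 with and 0.11 ± 0.242 without these libraries. How many of all genes kept their sign or call in Gnb5-/- mice was not computed. These counts therefore show nothing particular to the 9 genes.

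A list of 46 other genes of voltage-gated potassium channels and their accessory proteins gave the setting of these differences, and 45 of them are in the files and 44 were tested between tissues. Between wild-type brain and heart, 38 were higher in brain and 6 lower, with a median log2 difference of 6.06 against -1.02 for the 9 genes. Of the 46 genes, 26 passed the filter in the interaction fit of heart libraries and 43 in that of brain libraries. Genes that entered only through brain were bound to be higher there, so this split and this median were partly set by the filter. Dpp10 (12.68 ± 0.195), an accessory subunit of Kcnd channels, and Kcns2 (12.06 ± 0.191), a modulatory subunit, were among those furthest above heart, and Kcna7 (-9.14 ± 0.315), Kcnv2 (-8.38 ± 0.184) and Kcng2 (-5.61 ± 0.0926) lay furthest below. Between atria and ventricles, 15 were higher in atria, 7 were lower and 22 did not pass the test. Kcnh7 (8.61 ± 0.301), a relative of Kcnh2, and Dpp10 (4.89 ± 1.51) were among those with the largest differences towards atria, and Kcnc1 (-3.45 ± 0.315) and Kcnip1 (-1.87 ± 0.424), a relative of Kcnip2, towards ventricles. Levels of these other channel genes are not given here, and a large difference with a large SE, as for Dpp10, can rest on few counts. In cerebellum, 11 were higher and 28 lower than in cortex, and 13 higher and 25 lower than in hippocampus. Against cortex, Kcnv2 (6.04 ± 0.547) and Kcng4 (4.37 ± 0.119) were furthest above and Kcnv1 (-10.26 ± 0.292), Kcnf1 (-7.10 ± 0.123) and Kcng3 (-6.36 ± 0.429) furthest below. Against hippocampus they were Kcng4 (4.31 ± 0.118) and Kcnv2 (3.38 ± 0.385) above and Kcnv1 (-9.07 ± 0.291), Kcnf1 (-5.99 ± 0.119) and Kcnc2 (-5.83 ± 0.189) below. Between hippocampus and cortex 11 were higher and 20 lower, led by Kcnv2 (2.66 ± 0.902), Kcne2 (2.48 ± 0.837) and Kcng2 (2.30 ± 0.135) and by Kcnh4 (-3.16 ± 0.222), Kcnh5 (-2.04 ± 0.162) and Dpp10 (-1.61 ± 0.115). Kcne2 is also known from choroid plexus, and the summed level of 4 choroid plexus markers ran from 26.4 to 1159 CPM in wild-type hippocampus and from 8.88 to 215 CPM in cortex; its part in the difference of Kcne2 was not tested.

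The comparison of genotypes asked what the loss of Gnb5, a G protein beta subunit that works with RGS proteins, changes in each tissue. None of the 9 genes was called in any of the 7 comparisons. In Gnb5-/- against wild-type mice, edgeR called 0 of 9 in atria (0.253% of all genes), 0 of 9 in ventricles (0.188%), 0 of 8 in cerebellum (0.0817%), 0 of 8 in hippocampus (0.165%) and 0 of 8 in cortex (0.0557%), and in Gnb5+/- mice 0 of 9 in atria (0.0124%) and 0 of 9 in ventricles (0.0202%). The counts of Kcne1 were too few for a test in brain. At an unadjusted p below 0.05 stood 2, 3, 1, 1 and 0 genes in Gnb5-/- and 0 and 1 in Gnb5+/- mice in the same order, and DESeq2 called 0 in each comparison. Over all genes, 1318 of 16181, 711 of 14866, 1003 of 17139, 1355 of 17588 and 1327 of 17967 had such a p in Gnb5-/- mice. In Gnb5+/- mice, 1169 of 16181 and 720 of 14866 did. Of the other channel genes, 28, 19, 38, 42 and 41 were tested in the same tissues and edgeR and DESeq2 each called 0, with 1, 2, 7, 6 and 1 at an unadjusted p below 0.05 in Gnb5-/- and 0 and 2 in Gnb5+/- mice. A missed threshold does not show that the levels were alike, and the 95% intervals give the differences that the spread between mice left possible.

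**Figure D3:**
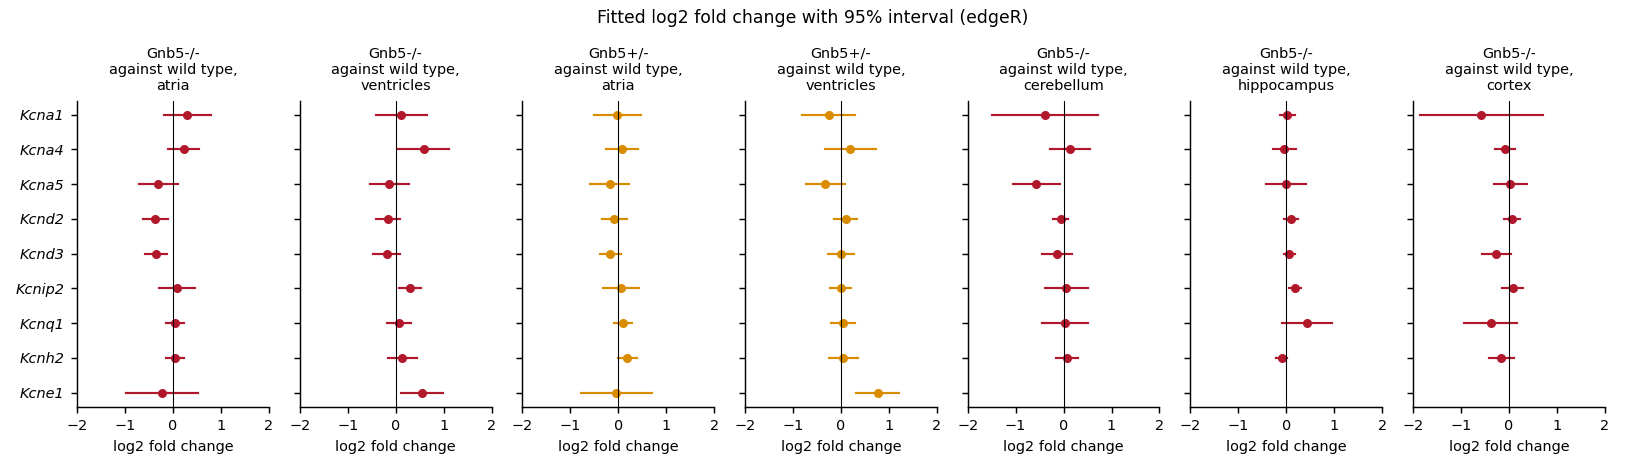
Log2 difference of each gene from wild-type in the 7 comparisons of genotype; points are fitted values and bars 95% intervals (edgeR, 6 against 6 libraries, not adjusted for the number of genes). The widest intervals are those of Kcna1 in cerebellum and cortex, and Kcne1 in Gnb5+/- ventricles lies furthest above 0.

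In atria, the Kcnd pores had the smallest p. Kcnd3 was at 29.6 to 39.4 CPM (median 35.6) in Gnb5-/-, 31.4 to 44.8 CPM (median 41) in Gnb5+/- and 38.4 to 57.4 CPM (median 43.8) in wild-type libraries. All 6 Gnb5-/- libraries lay below the wild-type mean, but the groups overlapped, and the log2 difference of -0.36 (95% interval -0.58 to -0.14) did not pass the test (edgeR adjusted p = 0.283, exact permutation p = 0.00866 for the gene alone). With Benjamini-Hochberg adjustment over the 9 genes, the exact permutation p of Kcnd3 was 0.0779. Kcnd2 was at 28.8 to 43.3 CPM (median 31.4) in Gnb5-/- and 33.9 to 44.2 CPM (median 40.7) in Gnb5+/- libraries, overlapping the wild-type range, with a log2 difference of -0.37 (interval -0.63 to -0.11, adjusted p = 0.385) in Gnb5-/- mice. Their accessory subunit Kcnip2 was at 21.5 to 37.4 CPM (median 28.6) in Gnb5-/- and 23.8 to 35.8 CPM (median 25.9) in Gnb5+/- libraries, within the wild-type range, a log2 difference of 0.086 (interval -0.29 to 0.46) in Gnb5-/- mice. The narrowest Gnb5-/- intervals in atria were those of Kcnq1 (0.035, -0.15 to 0.22) and Kcnh2 (0.043, -0.15 to 0.24), and the widest that of Kcne1 (-0.23, -0.98 to 0.51). Kcna4 was at 5.44 to 9.4 CPM, Kcna5 at 4.32 to 9.41 CPM and Kcna1 at 2.25 to 5.82 CPM in Gnb5-/- atria, each overlapping its wild-type group. In Gnb5+/- atria the log2 differences of the 9 genes ran from -0.18 to 0.19, and the 2 comparisons share the wild-type libraries.

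In ventricles, Kcne1 had the lowest p of the 9 genes in the Gnb5+/- comparisons. It was at 5.0, 9.2, 9.55, 7.25, 5.52 and 6.96 CPM in wild-type replicates 1 to 6, at 18, 10.4, 15.6, 9.83, 10.2 and 9.92 CPM in Gnb5+/- and at 16.3, 11.2, 6.27, 10.8, 9.92 and 9.77 CPM in Gnb5-/- replicates. Every Gnb5+/- library lay above every wild-type library, by 0.271 CPM at the nearest, and 1 Gnb5-/- library lay within the wild-type range. The log2 difference was 0.77 (interval 0.32 to 1.21, edgeR adjusted p = 0.961) in Gnb5+/- and 0.55 (interval 0.11 to 1.00, adjusted p = 0.823) in Gnb5-/- mice, against the same wild-type libraries, and neither was called. For the gene alone, the exact permutation p in Gnb5+/- mice was 0.00216, the smallest that 6 against 6 libraries can give. It was the lowest of the 9 genes over all comparisons of genotype. With Benjamini-Hochberg adjustment over the 9 genes this exact permutation p was 0.0195, which leaves out the other comparisons. Among the 9 genes, 1 had groups that did not overlap in Gnb5+/- ventricles (0.148% of all genes), and 0 did in Gnb5+/- atria (0.192%) and in Gnb5-/- atria (0.643%), ventricles (0.545%), cerebellum (1.11%), hippocampus (0.608%) and cortex (0.534%). With 1 library left out at a time, the Gnb5+/- value of Kcne1 ran from 0.62 to 0.86, and it was 0.83 ± 0.22 (adjusted p = 0.708) without replicate 4, the ventricular library that stood apart.

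In Gnb5-/- ventricles, Kcnip2, Kcne1 and Kcna4 had an unadjusted p below 0.05. Kcnip2 was at 162 to 225 CPM (median 188) in Gnb5-/-, 136 to 168 CPM (median 156) in Gnb5+/- and 115 to 185 CPM (median 156) in wild-type ventricles, a log2 difference of 0.30 (interval 0.073 to 0.52, adjusted p = 0.761) in Gnb5-/- and -0.0069 (interval -0.23 to 0.22) in Gnb5+/- mice. Kcna4 was at 2.47 to 3.97 CPM (median 3.02) in Gnb5-/-, 1.23 to 3.36 CPM (median 2.45) in Gnb5+/- and 1.08 to 3.0 CPM (median 2.31) in wild-type ventricles, a log2 difference of 0.59 (interval 0.054 to 1.12, adjusted p = 0.945) and 0.20 (interval -0.34 to 0.74). For both genes all 6 Gnb5-/- libraries lay above the wild-type mean, but the groups overlapped and the test was not passed. The pores Kcnd2 (-0.16, -0.40 to 0.082) and Kcnd3 (-0.19, -0.46 to 0.095) were at 43.4 to 58 CPM and 29.5 to 41.1 CPM in Gnb5-/- ventricles. The ratio of Kcnip2 to Kcnd2 per kb was 5.84 ± 0.956 in Gnb5-/-, 4.0 ± 0.794 in Gnb5+/- and 4.27 ± 0.674 in wild-type ventricles and 1.33 ± 0.344, 1.06 ± 0.174 and 1.0 ± 0.396 in atria, values that overlap between genotypes and were not tested. The Gnb5-/- differences of Kcnh2 (0.14, -0.16 to 0.44), Kcnq1 (0.067, -0.18 to 0.32), Kcna5 (-0.13, -0.54 to 0.27) and Kcna1 (0.12, -0.42 to 0.66) had intervals on both sides of 0. In Gnb5+/- ventricles the log2 differences other than that of Kcne1 ran from -0.32 for Kcna5 to 0.20 for Kcna4. That of Kcna1 was -0.25, and -0.083 ± 0.225 without replicate 4, the library that stood apart.

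In brain, Kcna1 was very low in the 3 libraries that stood apart. In Gnb5-/- cerebellum it was at 3.34 CPM in replicate 2 and 91.4 to 125 CPM in the other 5, against 116 to 125 CPM in wild-type mice. In Gnb5-/- cortex it was at 1.15 and 8.86 CPM in replicates 3 and 5 and 47.3 to 52.9 CPM in the other 4, against 46.3 to 54.8 CPM in wild-type mice. Kcnd3 was low in the same libraries, at 68.2 CPM in cerebellum, where the other 5 held 128 to 147 CPM, and at 44.6 and 69.1 CPM in cortex, where the other 4 held 83.2 to 91.9 CPM. Over 11550, 11893 and 11845 genes, the deviation of Kcna1 ranked 21, 35 and 42 from the lowest in these libraries. The longest transcripts have 4031 bases for Kcna1, 7169 for Kcnd3 and 5152 for Kcnd2. Kcnd2 was at 226 CPM or more in Gnb5-/- cerebellum and 65.9 CPM or more in Gnb5-/- cortex. The part of length was not tested. The log2 difference of Kcna1 was -0.57 (interval -1.85 to 0.71) in cortex and -0.059 ± 0.0527 (SE) without the 2 libraries, and -0.39 (interval -1.49 to 0.72) in cerebellum and -0.13 ± 0.0651 without the 1. Kcnd3 in cortex was at -0.26 (interval -0.56 to 0.040) with and -0.091 ± 0.0594 without them, and in cerebellum at -0.14 (interval -0.45 to 0.17) and -0.016 ± 0.0417. Neither gene was called with or without these libraries. In hippocampus, where no library stood apart, Kcna1 was at 55.5 to 71 CPM (median 61.3) in Gnb5-/- and 53.1 to 68.7 CPM (median 61.6) in wild-type mice, a log2 difference of 0.018 (interval -0.14 to 0.17).

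**Figure D4:**
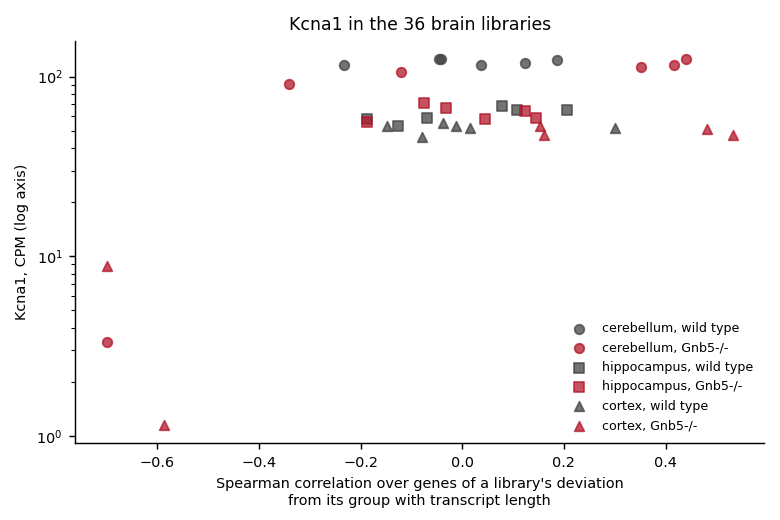
Kcna1 level (CPM, y axis, log scale) of the 36 brain libraries against the Spearman correlation, over genes, between a library's deviation from its group and transcript length (x axis), by region and genotype. The 3 Gnb5-/- libraries at correlations of -0.70 to -0.59 lie at 1.15 to 8.86 CPM, and the other 33 libraries at 46.3 CPM or more.

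The other genes did not pass the test in brain. Kcnip2 was at 167 to 211 CPM (median 197) in Gnb5-/- and 157 to 176 CPM (median 171) in wild-type hippocampus, a log2 difference of 0.18 (interval 0.053 to 0.30, adjusted p = 0.488), and at 99.2 to 158 CPM (median 133) in Gnb5-/- cortex, on both sides of the wild-type range. Kcna5 was at 0.106 to 0.228 CPM (median 0.176) in Gnb5-/- and 0.18 to 0.331 CPM (median 0.256) in wild-type cerebellum, from 6 to 14 and 10 to 20 counts per library, a log2 difference of -0.57 (interval -1.06 to -0.081, adjusted p = 0.583). Kcnd2, the most abundant of the 9 genes per kb in cerebellum, had intervals of -0.22 to 0.094 in cerebellum, -0.051 to 0.24 in hippocampus and -0.093 to 0.23 in cortex. Kcna4 differed by 0.13, -0.038 and -0.080 and Kcnh2 by 0.069, -0.10 and -0.16 in cerebellum, hippocampus and cortex. Without the 2 cortical libraries that stood apart, Kcnh2 differed by -1.44e-04 ± 0.0622 and Kcna4 by -0.025 ± 0.0837 in cortex. Without cerebellar Gnb5-/- replicate 2, Kcnip2 changed sign from 0.057 to -0.11 ± 0.165 and Kcnq1 from 0.021 to -0.063 ± 0.224 in cerebellum. None of these was called. Kcnq1, at 0.195 to 0.67 CPM in Gnb5-/- brain, differed by 0.44 ± 0.244 in hippocampus and -0.38 ± 0.256 in cortex, and neither was called.

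Whether the difference between Gnb5-/- and wild-type mice varied with tissue was tested as an interaction, with the mouse as a block. EdgeR called 0 of 9 genes between ventricles and atria (0.00622% of all genes) and 0 of 8 between hippocampus and cerebellum (0.0258%), cortex and cerebellum (0.0103%) and cortex and hippocampus (0%), with 1, 0, 1 and 1 at an unadjusted p below 0.05, and DESeq2 was not run on the interactions. Over all genes, 734 of 16076, 721 of 19388, 721 of 19388 and 857 of 19388 had such a p in the same order. In heart, Kcne1 had the lowest p, with a log2 difference 0.73 ± 0.335 higher in ventricles than in atria (adjusted p = 1). In brain, Kcnq1 differed by -0.78 ± 0.356 between cortex and hippocampus (adjusted p = 0.641), or -0.75 ± 0.389 without the 3 libraries that stood apart, and Kcna5 by 0.62 ± 0.282 between cortex and cerebellum (adjusted p = 1), or 0.57 ± 0.333 without them. Of the other channel genes 0 were called in these 4 tests, with 0, 6, 4 and 3 at an unadjusted p below 0.05.

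Atria and ventricles came from the same mice, so the variation between animals was compared between the chambers. With each group centred on its mean, the log2 level of Kcna5 in the atria of a mouse went with that in its ventricles, at Pearson's r = 0.85 and Spearman's rho = 0.88 over 18 mice (permutation p = 3.00e-05 and 4.00e-05, and 2.70e-04 and 3.60e-04 with Benjamini-Hochberg adjustment over the 9 relations computed). Without the 2 mice farthest from the atrial median, r was 0.79. In wild-type mice, replicates 5 and 2 had 10.9 and 10.3 CPM in atria and 41.5 and 31.5 CPM in ventricles, the highest of both groups, and replicates 1 and 6 had 5.18 and 5.75 CPM in atria and 14.9 and 16.2 CPM in ventricles, the lowest. Kcnq1 had r = 0.64 and rho = 0.60 (permutation p = 0.0057 and 0.0135, adjusted p = 0.0256 and 0.0606), and r = 0.42 without the 2 farthest mice, so the relation rests partly on them. The other 7 genes did not pass the adjusted threshold, with r from -0.081 for Kcnh2 to 0.59 for Kcnd2. The summed level of 11 clock genes ran from 339 to 679 CPM in atria and from 392 to 664 CPM in ventricles, and its part in the variation of Kcna5 was not tested. This sum does not give the time of collection.

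**Figure D5:**
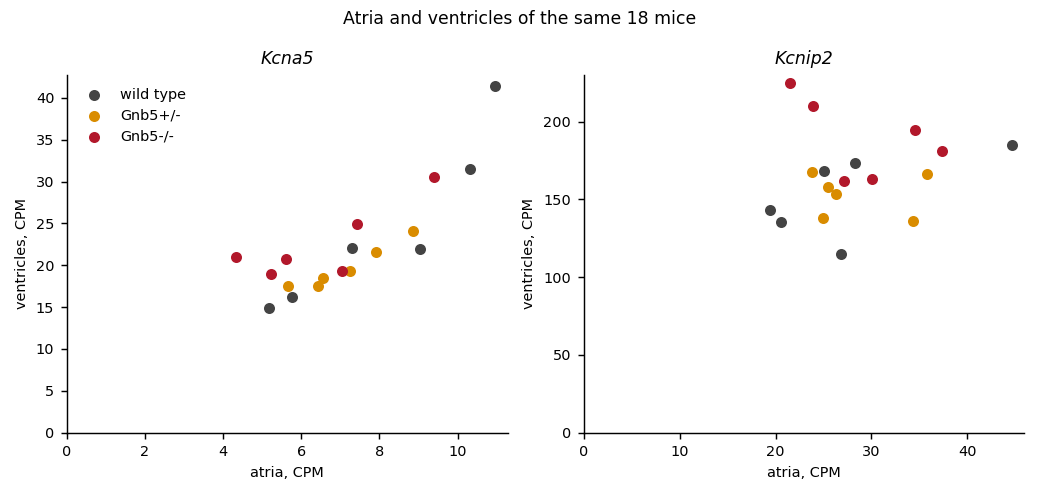
Level of Kcna5 and Kcnip2 in the atria (x axis, CPM) and ventricles (y axis, CPM) of the same 18 mice, by genotype; each point is 1 mouse. For Kcna5 the mice line up, with the highest at 10.9 CPM in atria and 41.5 CPM in ventricles; for Kcnip2, with r = 0.14 after centring, they do not.

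Over all 72 libraries, the 3 protein-coding genes with the most similar log2 CPM were found for each gene, as a description of profiles that differ between tissues. The libraries that stood apart are included, and in those of brain both Kcna1 and Kcnd3 were low. Correlations without them were not computed. By Pearson's r they were Cdc42bpa, Sptan1 and Htt for Kcna1 (0.988, 0.984 and 0.978), Aak1, Cdc42bpa and Fmnl2 for Kcnd3 (0.972, 0.971 and 0.970), Dgkd, Kcng4 and Pik3r3 for Kcnd2 (0.963, 0.957 and 0.956), and Psrc1, Ptpro and Stxbp6 for Kcna4 (0.959, 0.959 and 0.959). For the genes higher in heart than in brain they were Cav1, Rbpms and Smtn for Kcnq1 (0.995, 0.995 and 0.994), Slc38a10, Gas6 and Erbb2 for Kcnh2 (0.985, 0.985 and 0.985), Oxct1, Rpl3l and Hsd17b4 for Kcne1 (0.983, 0.978 and 0.976), Slc22a3, Atp8b1 and Ccnyl1 for Kcna5 (0.966, 0.958 and 0.958), and Rcor2, Nrarp and Vwa3a for Kcnip2 (0.955, 0.953 and 0.949). Cdc42bpa stood in the lists of both Kcna1 and Kcnd3. Among the 9 genes themselves, r was highest between Kcna1 and Kcnd3 (0.96) and between Kcnq1 and Kcnh2 (0.95), and lowest between Kcnd3 and Kcnq1 (-0.92), and libraries of 1 tissue or 1 mouse are not independent points.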

How the data were processed

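Total RNA of each tissue was sequenced with a stranded total RNA kit as single-end reads. The authors trimmed reads with Cutadapt 1.8, removed ribosomal reads, aligned with STAR 2.5.3a to GRCm38 and deposited raw counts per Ensembl gene from htseq-count 0.9.1, 1 file per library. Here, counts were normalized by TMM and tested with the quasi-likelihood test of edgeR 4.0.16 (R 4.3.3) over all genes that passed filterByExpr (count minimum 10), with Benjamini-Hochberg adjustment and a threshold of 0.05. Genotypes were fitted within a tissue, wild-type tissues in 1 fit of 30 libraries, and interactions with the mouse as a block. Exact permutation tests were two-sided over 924 splits. Intervals and p-values of the genotype comparisons cover the spread between mice, and those of the interactions the spread within mice. The main fit of tissues treated libraries of 1 mouse as independent, which they are not. Rows of reads not assigned to a gene were left out (2.85 to 17% of reads outside annotated genes). Alternatives were RLE factors, no filter, DESeq2 1.42.0, the replicate block, 2 genotypes in the fit and leaving out each library. The scripts were tested on simulated data. Named genes were the 9 genes, the 3 most similar genes of each, and, of the other channel genes, those called between genotypes and the 3 with the largest called difference each way between tissues, some of which are not reported here. The 9 genes and the lists were chosen with earlier results of these data known.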

Additional observations from a re-analysis of the deposited data

Results flagged for a closer look

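In 10 of 108 combinations of gene and group, 1 library lay far from the other 5 by Dixon's criterion, and chance alone gives about 1 in 20 groups. The 2 in cerebellum Gnb5-/- replicate 2 were Kcna1 at 3.34 CPM (others 91.4 to 125 CPM) and Kcnd3 at 68.2 CPM (others 128 to 147 CPM), in a library that stood apart by transcript length. In wild-type atria replicate 4, Kcnip2 was at 44.7 CPM (others 19.5 to 28.2 CPM) and Kcnq1 at 74.9 CPM (others 60.3 to 63.7 CPM), and the library held 1064 CPM of ventricular muscle genes. In wild-type hippocampus replicate 6, Kcne1 was at 0.14 CPM (others 0 to 0.0356 CPM), from 7 counts. Kcnq1 was low in Gnb5+/- atria replicate 4 at 51.3 CPM (others 67.9 to 76.8 CPM) and in wild-type cerebellum replicate 3 at 0.24 CPM (others 0.363 to 0.407 CPM). Kcnd2 was high in Gnb5-/- atria replicate 6 at 43.3 CPM (others 28.8 to 33.4 CPM) and in Gnb5-/- cerebellum replicate 5 at 264 CPM (others 226 to 230.3 CPM), and Kcnip2 in wild-type cortex replicate 2 at 145 CPM (others 118 to 125 CPM). The part of depth, dissection or length in these values was not tested.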

How the results depend on the processing

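Under every alternative run that changes normalization, filter, tool, genotypes in the fit or block, 0 of the 9 genes were called in the 7 comparisons of genotype and the 4 interactions, nor in the 7 comparisons with 1 library left out, which was not run for the interactions. With 1 wild-type mouse left out, 7 to 8 of the 9 were called between atria and ventricles, 5 to 7 between hippocampus and cortex and 6 to 7 between cerebellum and cortex. Log2 differences that changed sign were small and not called: with the replicate number as a block, Kcne1 0.062 and Kcna1 0.0013 in Gnb5+/- atria, Kcnd3 -0.028 in Gnb5+/- ventricles, Kcnq1 -0.0067 in cerebellum and Kcna5 0.0030 in hippocampus; with no filter, Kcnd3 -0.010 in Gnb5+/- ventricles; and without the 3 brain libraries that stood apart, an alternative chosen after seeing the data, the interactions of Kcna1 0.087 (cortex against cerebellum), Kcnh2 0.10 and Kcna5 -0.0026 (cortex against hippocampus). With 1 library left out, values that crossed 0 ran as follows. In Gnb5+/- atria they were Kcna1 -0.18 to 0.13, Kcnd2 -0.16 to 0.017, Kcne1 -0.20 to 0.23 and Kcnip2 -0.026 to 0.25. In Gnb5+/- ventricles they were Kcnd3 -0.055 to 0.12, Kcnh2 -0.040 to 0.13, Kcnip2 -0.074 to 0.047 and Kcnq1 -0.015 to 0.11. In Gnb5-/- atria they were Kcne1 -0.40 to 0.035, Kcnh2 -0.021 to 0.093 and Kcnq1 -0.0049 to 0.083. In Gnb5-/- cerebellum they were Kcnip2 -0.11 to 0.13 and Kcnq1 -0.073 to 0.14. In Gnb5-/- cortex they were Kcna5 -0.065 to 0.15. In Gnb5-/- hippocampus they were Kcna1 -0.025 to 0.055, Kcna4 -0.11 to 0.040 and Kcna5 -0.094 to 0.090. In Gnb5-/- ventricles they were Kcna1 -0.0095 to 0.25 and Kcna5 -0.24 to 0.075. In wild-type atria against ventricles they were Kcna1 -0.075 to 0.25. In wild-type cerebellum against hippocampus they were Kcne1 -0.98 to 0.74. In wild-type hippocampus against cortex they were Kcne1 -1.94 to 0.35. The causes were not tested. Counts over all genes moved more than 1.5 times in DESeq2, to 110 in Gnb5-/- atria, 7 in Gnb5+/- atria, 63 in ventricles, 49 in cerebellum, 104 in hippocampus and 25 in cortex; with the replicate block, to 0 in Gnb5+/- ventricles, 5 in cerebellum, 19 in hippocampus and 6 in cortex; with 2 genotypes in the fit, to 20 in Gnb5-/- atria and 1 in Gnb5+/- ventricles; with no filter, to 135 in the heart interaction; with no block, to 4 in that of cortex and cerebellum; and without the libraries that stood apart, to 26 in cortex and 18, 15 and 3 in the brain interactions. With 1 library left out they ran from 24 to 62 in Gnb5-/- atria, 17 to 41 in ventricles, 9 to 62 in cerebellum (highest without Gnb5-/- replicate 2), 21 to 37 in hippocampus, 8 to 22 in cortex (highest without Gnb5-/- replicate 3), 2 to 6 in Gnb5+/- atria (2 without any library other than wild-type replicate 1) and 1 to 5 in Gnb5+/- ventricles (highest without wild-type replicate 1). Replicate numbers across genotypes join different animals, and at most 3 of 6 same-numbered pairs correlated above 0.1 in any comparison; between wild-type tissues the number is the mouse, and the mouse as a block changed no count of the 9 genes called. Dividing by the longest transcript in place of the exon union exchanged the ranks of 2 genes in atria (Kcnd2, Kcnip2), cerebellum (Kcna5, Kcnq1), hippocampus and cortex (Kcna1, Kcnd3) and none in ventricles. Depth limits Kcne1 and Kcnq1 in brain and Kcne1 in atria, where few counts stand behind each value.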
